A study of Homo sapiens with 4 samples.

Results

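ATP-binding cassette (ABC) transporters are membrane proteins that spend ATP to move lipids, metabolites and drugs across a membrane. The ABCB members described here, which are only a part of that class, move phospholipids at the cell surface or work as half-transporters in the inner membrane of mitochondria. ABCC members (the multidrug resistance-associated proteins, MRP) export organic anions and conjugates of glutathione and glucuronic acid, and ABCG2 is a half-transporter known as breast cancer resistance protein. In tumor cells, several of them are known for lowering the amount of chemotherapeutic drug inside the cell. The genes described here are the 10 ABC transporters whose symbols stand in the gene name column of a cancer microarray: ABCB4, ABCB8 and ABCB10 of the ABCB class, ABCC1 to ABCC6 of the ABCC class, and ABCG2. They account for 10 of the 1768 genes named on the array (1856 gene probes) and for 20 of the 3786 gene spots, each gene being printed as 2 spots in the same print block. The accession that the files give for each of the 10 probes belongs to the gene of that symbol in RefSeq.

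The question was how rhLRG1, the recombinant human form of a secreted leucine-rich glycoprotein linked to angiogenesis, changes gene expression in breast cancer cells. MDA-MB-231, an established line from a triple-negative breast adenocarcinoma, was given rhLRG1 at 100 ng/mL in serum-supplemented RPMI medium, against untreated cells in that medium alone, and all cultures were harvested at 24 h. The samples analysed here are 2 rhLRG1-treated and 2 untreated cultures (replicates 2 and 3), which the series calls independently grown. The paper states 3 biological replicates for the RNA and names 2 independent experiments for the labeling. One line stands for the disease here. Cultures of the same number were hybridized together on 1 two-color array, rhLRG1-treated cells always with Alexa Fluor 647 and untreated cells always with Alexa Fluor 555, so dye and treatment cannot be told apart in any ratio given below.

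Each spot has a raw foreground intensity and a local background, both in scanner units. The median gene spot stood at 5.69 and 4.57 times its background in rhLRG1-treated cells (replicates 2 and 3), against 11.8 and 8.71 times in untreated cells. The rhLRG1 channel was therefore the dimmer one, and before normalization the median log2 ratio of rhLRG1-treated over untreated cells was -0.31 over all gene probes. Every normalized ratio below is relative to that shift. Of 5 genes listed as general mesenchymal markers, 4 were on the array (VIM, CDH2, CD44 and SPARC). On each array every gene probe exceeded its background by 2 SD in one channel or the other. This criterion passed leukocyte, endothelial and fibroblast markers alike, so it identifies no cell type. The summed normalized intensity of the 4 leukocyte markers was 3456 and 5594 in rhLRG1-treated cells and 3269 and 5384 in untreated cells, that of the 3 fibroblast markers found was 712 and 943 against 719 and 957, and the only endothelial marker, CDH5, stood at 93.7 and 233 against 119 and 244. The background correction left dim spots at higher values on replicate 3, as shown further below, so these values are not compared between the arrays. CD3G was the only one of these markers with a Z ratio beyond 1.5 (2.38, higher in rhLRG1-treated cells, but 1.37 and not called on replicate 3 alone), and its part in the transporter values was not tested. Of 9 luminal and hormone receptor genes, 4 were found and PGR was called lower (Z ratio -1.60, but -0.93 and not called on replicate 3 alone), while 1 of the 2 probes of CDH2 was called higher (2.34) and the other was not (-0.36).

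Among the transporters, ABCB4 was the only gene called different between rhLRG1-treated and untreated cells, with a higher signal after treatment. ABCC5 had lower ratios in rhLRG1-treated cells in every reading but stayed inside the threshold. The other 8 genes, which include the drug exporters ABCC1 and ABCG2, had mean ratios between 0.97-fold and 1.07-fold. Genes were called by the Z ratio of the methods, which is the difference between the standardized log10 intensities of the conditions divided by the SD of all such differences, with a threshold of 1.5. By this rule 1 of 10 transporters was higher and 0 were lower in rhLRG1-treated cells, against 6.73% of all gene probes higher and 6.63% lower (13.4% in either direction). The Z ratio uses no spread between replicates and gives no p-value. In limma, which tests the log2 ratios of both arrays, 0 of 10 transporters and 0 of 1856 gene probes passed an adjusted p of 0.05. Without adjustment, 2 of 10 (ABCB4 and ABCC5) and 23.3% of all gene probes fell under 0.05. The smallest adjusted p of limma over the array was 0.124, and an exact test on 2 pairs cannot go below a two-sided p of 0.5.

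**Figure D1:**
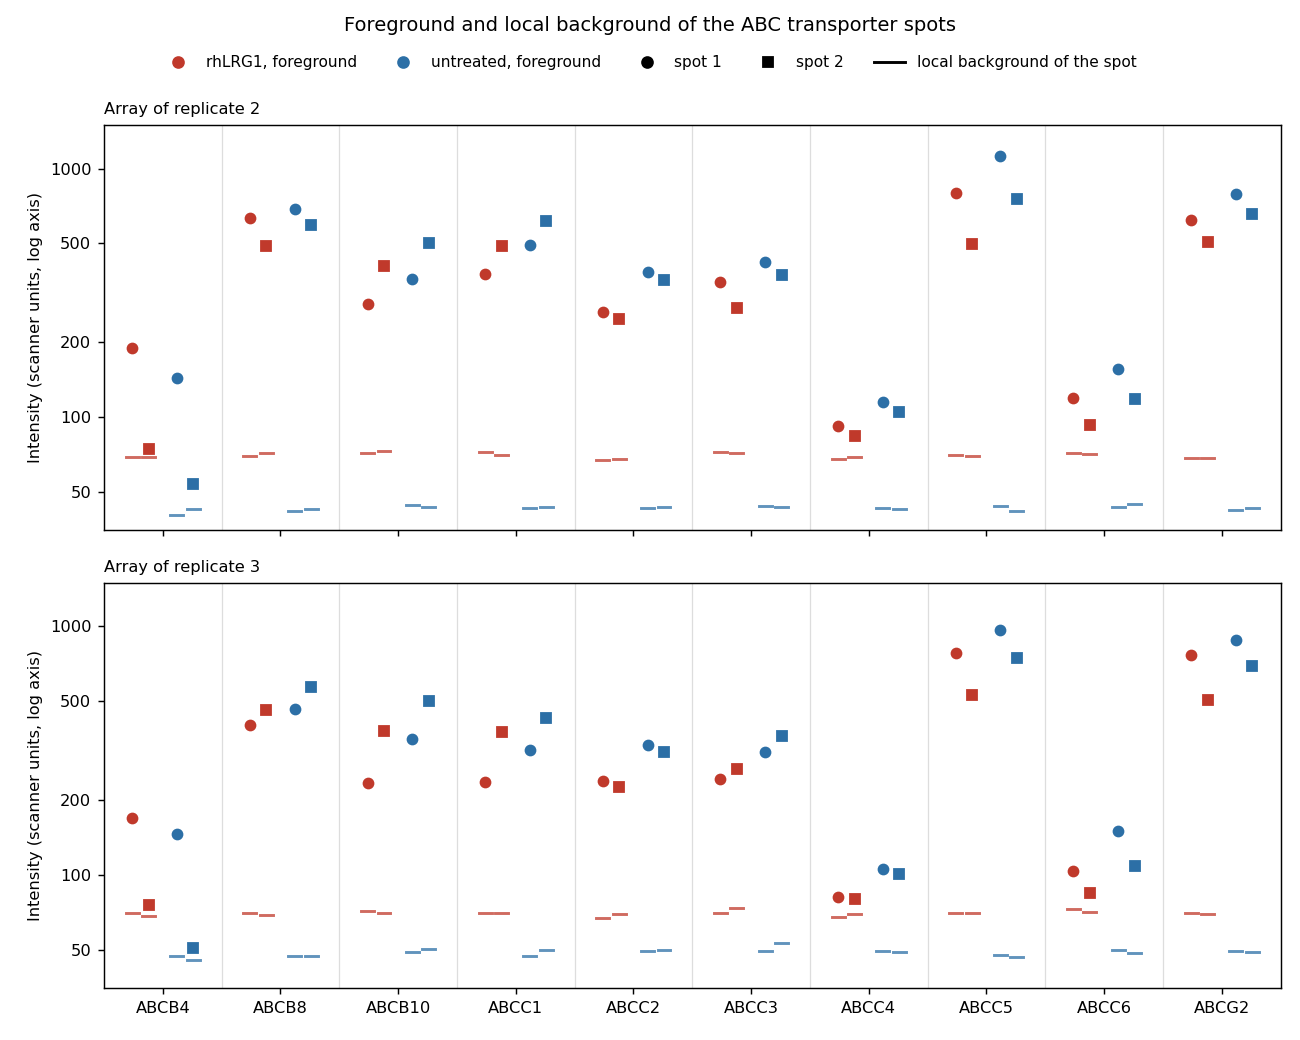
Raw foreground intensity (scanner units, log axis) of both spots of each ABC transporter on the arrays of replicates 2 and 3, in rhLRG1-treated cells (red, left) and untreated cells (blue, right), with short lines for the local background of each spot. ABCB4 is the only gene whose rhLRG1 readings all lie above the untreated readings of the same spot, and its spot 2 lies just above the background lines.

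In raw intensity, ABCB4 was the exception among the 10 genes. It was brighter in rhLRG1-treated than in untreated cells in 4 of 4 readings (2 spots on 2 arrays), as were 5.68% of the 1849 probes with 2 spots. All spots of the other 9 transporters were dimmer in rhLRG1-treated cells on both arrays, as was the channel as a whole. All 80 transporter readings exceeded their background by more than 2 of its SD. That says little about expression, since 3758 to 3785 of the 3786 gene spots did so in each sample. ABCB4, ABCC4 and ABCC6 belonged to the dimmest of 3 equal groups of gene probes, in which calls were more common (23.3% of 618 probes), and 1 of these 3 was called.

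The ABCB class held the only call. Its 3 members had mean log2 ratios above 0 after loess normalization (median 0.096, against -0.0061 over all gene probes), with ABCB10 turning below 0 under median centring and ABCB8 and ABCB10 below 0 without normalization. ABCB4, also known as MDR3, is the flippase that delivers phosphatidylcholine to bile at the canalicular membrane of hepatocytes. Whether its probe also binds transcripts of related ABCB genes was not examined. On the array of replicate 2, spot 1 of ABCB4 read 189 units in rhLRG1-treated cells against 143 units in untreated cells. Its spot 2 read 74.3 against 53.4 units. The array of replicate 3 gave 169.6 against 146 units for spot 1 and 75.6 against 50.7 units for spot 2. These raw readings still hold the local background, which was higher in the rhLRG1 channel around both spots.

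The local background differed between the channels as well, and the sign of spot 2 depended on it. It lay around spot 2 at 68.9 and 68.3 units in rhLRG1-treated cells and at 42.5 and 45.3 units in untreated cells. Once the background is subtracted, 5.45 and 7.31 units were left in rhLRG1-treated cells, against 10.9 and 5.45 units in untreated cells. The direction of spot 2 therefore differed between the arrays. Spot 1 kept 119.8 and 99.4 units in rhLRG1-treated cells, against 103 and 98.8 units in untreated cells, which is higher after treatment on both arrays, although by little on replicate 3. At most 1.53% of all gene spots were dimmer over their background than spot 2 in any sample.

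After background correction and loess normalization, the log2 ratio of ABCB4 was 1.01 and 0.34 for spot 1 and 0.19 and 0.050 for spot 2 (replicates 2 and 3). All 4 readings lay above 0, and the spots disagreed in size. Their ratios were 0.56 log2 units apart on average, the rank 4 gap among 1849 probes with 2 spots, where the median gap was 0.071. In raw brightness, with the background left in, they differed up to 2.88-fold. A raw spread over 2-fold was seen in no other transporter and in 25.3% of all such probes. With the background subtracted, the spots of ABCB4 lay further apart, at 119.8 and 5.45 units in rhLRG1-treated cells on replicate 2. Those of ABCC6 then read 47.7 and 21.9 units in the same sample. Most of the ratio of spot 1 on replicate 2 was added by the loess step, which raised it by 0.84 from a background-corrected ratio of 0.17. The shift was 0.31 on replicate 3. Without normalization the mean log2 ratio of ABCB4 was 0.0093, which still lay above the -0.31 of all gene probes.

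Averaged over its spots, ABCB4 had a log2 ratio of 0.60 on replicate 2 and 0.20 on replicate 3. The mean was 0.40 (SE 0.10, n = 2 arrays), or 1.32-fold with a 95% interval of 1.10 to 1.58, and limma gave an adjusted p of 0.145. Its Z ratio was 3.11, rank 22 of 1856 gene probes by size. With a single array it was 3.35 (replicate 2) and 2.00 (replicate 3), and with single spots 3.22 (spot 1) and 2.78 (spot 2). A Z ratio as high as that of ABCB4 also occurred with smaller log2 ratios in the dimmest group. Examples are CD74 (Z ratio 3.24, log2 ratio 0.15) and APC (Z ratio 3.20, log2 ratio 0.14). The rank therefore does not give the size of the increase. The Z ratio of spot 2 is no separate support for the call, since this spot read only 1.08 to 1.26 times its background. With plain subtraction its direction differed between the arrays. After the correction used for the ratios, its intensity was lower in rhLRG1-treated cells on both arrays. That channel was dimmer over the whole array, and the Z ratio is relative to this shift. The normalized log2 level averaged 7.43 ± 0.81 in rhLRG1-treated cells and 7.03 ± 1.09 in untreated cells (SD, n = 2 each), and the levels of the groups overlapped, both channels of replicate 3 standing above those of replicate 2.

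ABCB8, a half-transporter of the inner mitochondrial membrane, was the other ABCB gene with 4 of 4 spot ratios above 0. On replicate 2 its spots read 632 and 488 units in rhLRG1-treated cells against 687 and 589.7 units in untreated cells, and on replicate 3 they read 402 and 459.7 against 467 and 569.7 units. The normalized log2 ratios were 0.18 and 0.13 for spot 1 and 0.051 and 0.026 for spot 2. They are small beside those of ABCB4. The mean was 0.096 (SE 0.057, adjusted p = 0.365 in limma), with a 95% interval of -0.048 to 0.24 and a Z ratio of 0.79, and it fell to -0.19 without normalization, above the median of all probes.

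ABCB10, which works beside it in the same membrane and is known from mouse erythroid cells for its part in heme synthesis, did not hold one direction. Its spots read 285 and 404 units in rhLRG1-treated cells against 358 and 499 units in untreated cells on replicate 2, and 234 and 379 against 353 and 499 units on replicate 3. Both log2 ratios were above 0 on replicate 2 (0.097 and 0.044) and below 0 on replicate 3 (-0.081 and -0.016). The arrays opposed each other. The mean of 0.011 (SE 0.062, Z ratio 0.15, adjusted p = 0.929 in limma) had a 95% interval of -0.15 to 0.17.

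**Figure D2:**
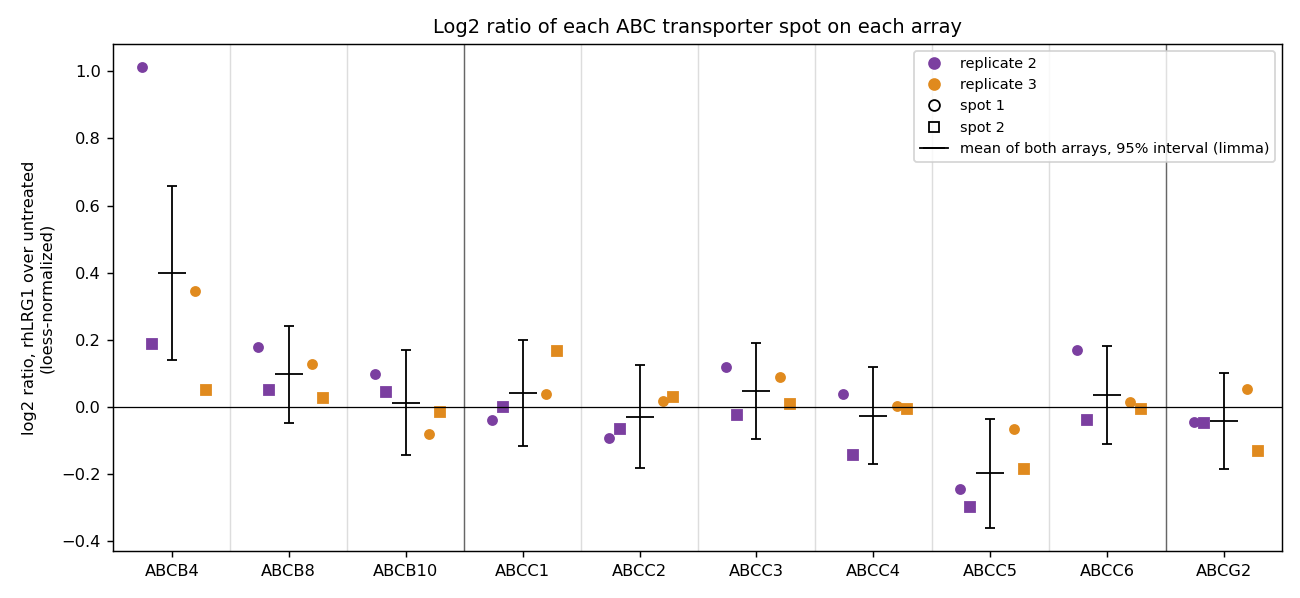
Loess-normalized log2 ratio of rhLRG1-treated over untreated cells for each spot (circle, spot 1; square, spot 2) on replicate 2 (purple) and replicate 3 (orange), with the mean of both arrays and its 95% interval from limma (black). ABCB4 spot 1 on replicate 2 reaches 1.01, ABCC5 has all 4 points below 0, and the intervals of the 8 other genes include 0.

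In the ABCC class, none of the 6 members was called. The mean log2 ratio was above 0 for ABCC1, ABCC3 and ABCC6 and below 0 for ABCC2, ABCC4 and ABCC5 (median 0.0039, against -0.0061 over all gene probes), and this split changed with the scaling, 1 above and 5 below under median centring and 4 and 2 under print-tip loess. ABCC5, or MRP5, exports cyclic nucleotides and nucleotide analogs. Its spots read 798 and 496 units in rhLRG1-treated cells against 1126 and 752 units in untreated cells on replicate 2. On replicate 3 they read 779 and 528 against 968 and 745 units. The rhLRG1 channel was the dimmer one in each of these readings.

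The normalized log2 ratios of ABCC5 were -0.24 and -0.066 for spot 1 and -0.30 and -0.19 for spot 2 (replicates 2 and 3). The mean was -0.20 (SE 0.065, n = 2 arrays), or 0.87-fold with a 95% interval of 0.78 to 0.98, and the adjusted p in limma was 0.174. The Z ratio of -0.97 did not reach the threshold. ABCC5 was the only transporter whose normalized levels did not overlap between the groups, against 10.2% of all gene probes. They stood at 9.50 ± 0.12 in rhLRG1-treated cells and 9.70 ± 0.015 in untreated cells (log2, SD, n = 2 each). In ABCB4, ABCC4 and ABCC6 both channels of replicate 3 stood above both of replicate 2, so this comparison could not separate their groups. The ratio of ABCC5 lay below 0 under every alternative run, from -0.45 without normalization to -0.13 on replicate 3 alone. It passed limma only with the deposited net intensities (-0.21, adjusted p = 0.0349 in limma).

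ABCC1, or MRP1, is an exporter of glutathione conjugates, leukotriene C4 and several anticancer drugs. Replicate 2 gave 375 and 488 units in rhLRG1-treated cells against 494 and 612 units in untreated cells, and replicate 3 gave 235 and 375 against 317 and 429 units. Its log2 ratios were -0.041 and -0.0015 on replicate 2 and 0.038 and 0.17 on replicate 3. The arrays again took opposite sides. The mean was 0.041 (SE 0.063, adjusted p = 0.713 in limma), with a 95% interval of -0.12 to 0.20 and a Z ratio of 0.46.

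ABCC2 and ABCC3 are related exporters of opposite cell poles, since ABCC2 carries bilirubin glucuronides and other organic anions across the apical membrane of hepatocytes while ABCC3 works on the basolateral side. The spots of ABCC2 read 264 and 249 units in rhLRG1-treated cells against 382 and 357 units in untreated cells on replicate 2, and 238 and 226 against 333 and 314 units on replicate 3. Its log2 ratios were -0.095 and -0.067 on replicate 2 and 0.016 and 0.028 on replicate 3, with a mean of -0.030 (SE 0.061, Z ratio -0.13, adjusted p = 0.793 in limma) and a 95% interval of -0.18 to 0.12. Its spots resembled each other closely, and the difference lay between the arrays. For ABCC3 the readings were 351 and 274 units in rhLRG1-treated cells against 421 and 373 units in untreated cells on replicate 2, and 242 and 266 against 311 and 363.5 units on replicate 3. Its spot 1 gave 0.12 and 0.090 and its spot 2 gave -0.024 and 0.0070, so here the spots differed more than the arrays. The mean of 0.048 (SE 0.057, Z ratio 0.36, adjusted p = 0.646 in limma) had a 95% interval of -0.095 to 0.19 and turned to -0.026 under median centring.

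ABCC4 and ABCC6 were dim. ABCC4, or MRP4, exports cyclic nucleotides and prostaglandins. It read 91.7 and 83.5 units in rhLRG1-treated cells against 114 and 105 units in untreated cells on replicate 2, and 81.75 and 80.2 against 105 and 100.4 units on replicate 3. With backgrounds of 67.6 to 69.3 units, its rhLRG1 readings were 1.16 to 1.36 times the background, against 2.05 to 2.66 times in untreated cells. Little signal was thus left in the rhLRG1 channel. Its log2 ratios were 0.037 and 0.0035 for spot 1 and -0.14 and -0.0060 for spot 2. The mean of -0.027 (SE 0.058, adjusted p = 0.804 in limma; 95% interval -0.17 to 0.12) and the Z ratio of 0.55 differed in sign, and the Z ratio ranged from -0.87 with plain subtraction to 0.97 without background correction.

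ABCC6, which is known from liver for the release of ATP and is mutated in pseudoxanthoma elasticum, has near-identical pseudogenes that its probe may also bind, so its values are uncertain. Its spots read 119 and 92.8 units in rhLRG1-treated cells against 156 and 118 units in untreated cells on replicate 2, and 103 and 84.8 against 149 and 109 units on replicate 3. The log2 ratios were 0.17 and 0.015 for spot 1 and -0.039 and -0.0053 for spot 2. Its direction depended on the spot. The mean was 0.035 (SE 0.058, Z ratio 0.29, adjusted p = 0.739 in limma; 95% interval -0.11 to 0.18), against -0.18 under median centring, -0.49 without normalization (adjusted p = 0.0416 in limma) and 0.27 with the deposited net intensities (adjusted p = 0.0125 in limma).

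ABCG2, the only ABCG gene, effluxes mitoxantrone, topotecan and other drugs and urate. Its spots read 622 and 506 units in rhLRG1-treated cells against 787 and 653 units in untreated cells on replicate 2, and 771 and 505 against 885 and 693 units on replicate 3. Its log2 ratios were -0.046 and -0.048 on replicate 2 and 0.052 and -0.13 on replicate 3. The spots were alike on 1 array and took opposite signs on the other. The mean was -0.043 (SE 0.057, Z ratio -0.074, adjusted p = 0.672 in limma), which is 0.97-fold with a 95% interval of 0.88 to 1.07, and it turned to 0.0010 under median centring and 0.0037 under print-tip loess.

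**Figure D3:**
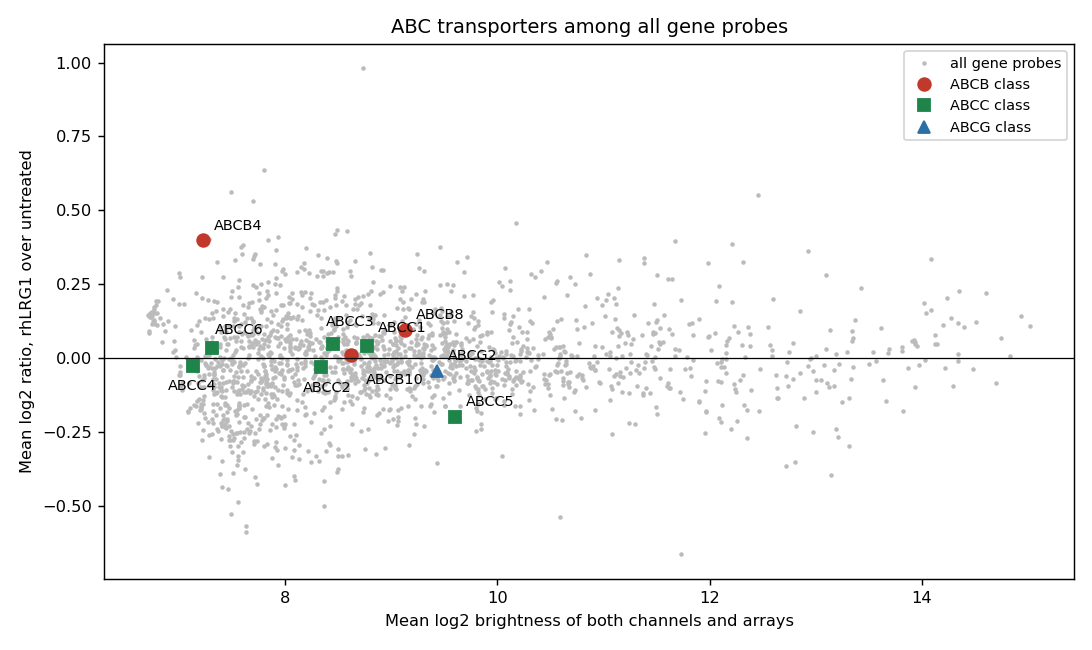
Mean log2 ratio of rhLRG1-treated over untreated cells against mean log2 brightness for all gene probes (gray) and the ABC transporters of the ABCB (red circles), ABCC (green squares) and ABCG (blue triangle) classes. ABCB4 lies high among the dim probes, ABCC5 lies low among brighter ones, and the other 8 transporters lie close to 0.

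Across the family, directions were mixed. The mean log2 ratios were above 0 in 6 of 10 genes (median 0.023), against 892 of 1856 gene probes (median -0.0061), and this count was 4 under median centring, 8 under print-tip loess and 1 without normalization. Both arrays gave the same direction in 7 of 10 transporters, against 75.3% of all gene probes, and all 4 spot ratios did so in 3 of 10 (ABCB4, ABCB8 and ABCC5), against 52.9% of the probes with 2 spots. On replicate 2, 9 of the 20 transporter spots had a ratio above 0, and on replicate 3, 13 of 20. A single spot ratio of the 40 exceeded 0.5 in size, that of ABCB4 spot 1 on replicate 2.

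The background correction set a different floor for dim spots on each array. For ABCB4 spot 2, the corrected intensity was 54.1 in rhLRG1-treated cells against 57.6 in untreated cells on replicate 2, and 207 against 219 on replicate 3, although the raw values of the arrays were nearly equal. ABCC4 spot 1 likewise had 72.8 against 118 on replicate 2 and 211 against 242 on replicate 3. In both spots of the 3 dim genes, the log2 ratio was closer to 0 on replicate 3 than on replicate 2. This was not particular to dim genes. It held in both spots of ABCB8, ABCB10, ABCC2, ABCC3 and ABCC5, though not in both spots of ABCC1 or ABCG2. Over all gene probes the SD of the log2 ratio was 0.207 on replicate 2 and 0.125 on replicate 3. The part of the floor in this was not tested. In the deposited net intensities, the log2 ratio of ABCB4 spot 1 was 1.28 on replicate 2 and 1.26 on replicate 3, and that of spot 2 was -0.22 and 0.57. The net intensity of the rhLRG1 channel holds a factor that for transporter spots ran as low as 1.11 (ABCB4 spot 2) and as high as 4.40 (ABCC6 spot 2), both of them dim.

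**Figure D4:**
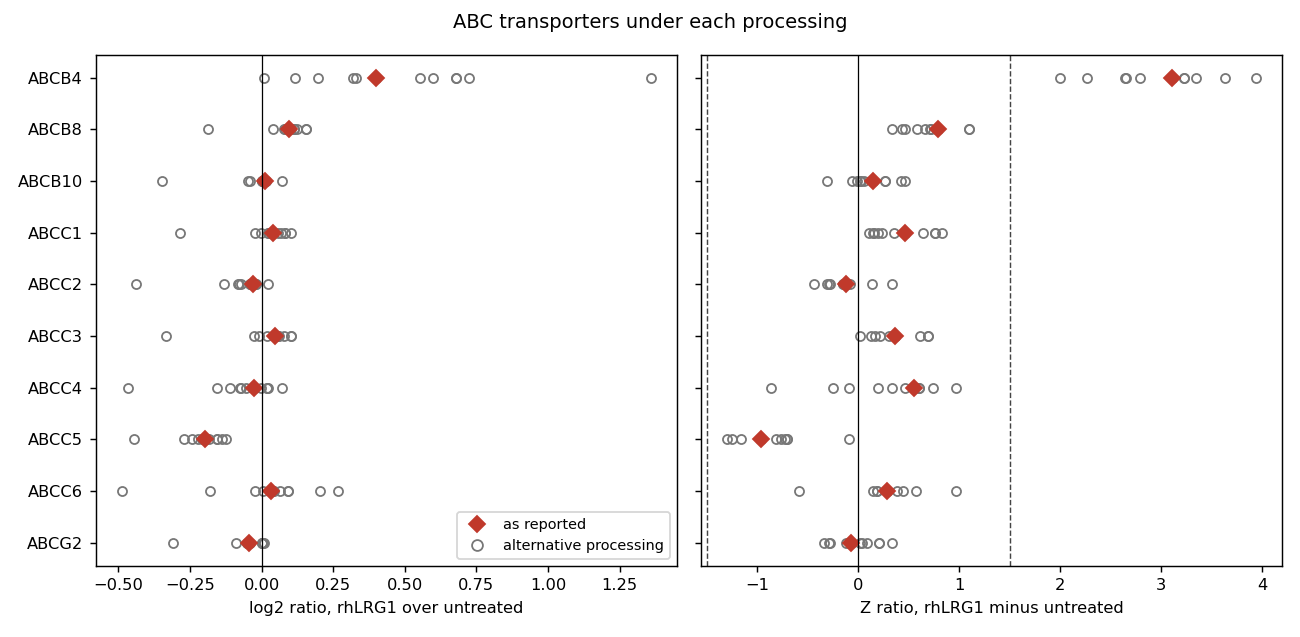
Log2 ratio (left) and Z ratio (right) of rhLRG1-treated over untreated cells for each ABC transporter as reported (red diamonds) and under each alternative processing (gray circles), with dashed lines at a Z ratio of 1.5 in either direction. ABCB4 stays beyond the line in every alternative with a Z ratio (2.00 to 3.94), ABCC5 stays below 0 (-1.30 to -0.093), and no other transporter reaches a threshold. Median centring, no normalization and the filter on dim probes could not change a Z ratio.

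Genes that work beside these transporters were measured on the same arrays. A list of 41 genes held other ABC genes, transport ATPases and MVP, a vault protein gene that is neither. Of these, 5 were found (ABCA3, ATP7B, CFTR, MVP and TAP1), and 0 were called, against 13.4% of all gene probes. In limma, 1 of 5 had an unadjusted p under 0.05, against 23.3% of all gene probes, and 0 passed after adjustment. Their median log2 ratio was 0.0062. ATP7B, a copper ATPase linked to cisplatin handling, had the largest ratio in this list at 0.17 (Z ratio 0.63), followed by ABCA3, a lipid transporter of lung surfactant, at -0.082 (Z ratio -0.33). Under median centring ATP7B turned to -0.098 and ABCA3 to 0.00060.

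Among the uptake carriers, 4 of 24 listed were found, and SLC22A4 and SLC22A3 went opposite ways. SLC22A4, a carrier of ergothioneine and organic cations, was called higher after rhLRG1, with log2 ratios of 0.47 and 0.32 (mean 0.40, SE 0.065, Z ratio 2.20). SLC22A3, an organic cation transporter, was called lower, with -0.41 and -0.30 (mean -0.36, SE 0.062, Z ratio -1.87), but it was not called on replicate 2 alone (Z ratio -1.38, against -2.17 on replicate 3 alone). SLC22A4 was called on each array alone (1.78 on replicate 2 and 2.32 on replicate 3). SLC22A4 and SLC22A3 each had an adjusted p of 0.143 in limma. Both kept their direction under median centring (0.63 and -0.30). SLC29A2 and SLC19A1 were not called, at -0.13 and -0.061.

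Among the transcription factors and partners known to regulate ABC genes, RXRA, AHR, VDR, PPARG, HIF1A and ARNT were measured and not called. HIF1A, a factor of the response to low oxygen, had log2 ratios of 0.078 and 0.17 (mean 0.13, SE 0.060, Z ratio 0.86), and AHR, the receptor of aryl hydrocarbons, had 0.18 and 0.048 (mean 0.11, SE 0.063, Z ratio 0.81). Their adjusted p values in limma were 0.283 and 0.339. GSTP1 and GSTM1, which attach glutathione to substrates that ABCC proteins export, were the 2 of 10 listed glutathione genes found, and both had log2 ratios below 0 on both arrays (means -0.17 and -0.16). Neither was called (Z ratios -0.87 and -0.52), and GSTM1 is uncertain because of its close paralogs. Among these carriers, regulators and glutathione genes limma passed 0 genes after adjustment, and 2 of 4 carriers and 1 of 2 glutathione genes had an unadjusted p under 0.05, beside 23.3% of all gene probes.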

How the data were processed

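RNA of 2 rhLRG1-treated and 2 untreated MDA-MB-231 cultures was hybridized on 2 two-color MWG cancer arrays. For each spot and channel, the authors deposited the scanned intensity, the local background and its SD, and a net intensity. The net intensity equals scanned intensity less background, but in the rhLRG1 channel it also holds a factor that varied between spots, applied by a program not named in the sources used. A deposited ratio column holds the authors' own comparison (untreated over treated) and was not used. The methods name genArise with default parameters and a Z-score in Excel. R 4.2.2 is listed in the processing notes of the submitters.

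Here, scanned intensities were corrected by normexp (offset 50), and loess was applied to the log2 ratios of each array with the 54 control spots at weight 0. The 2 spots of a probe were averaged, and 1849 of 1856 gene probes had 2 spots. Z ratios were computed from log10 background-corrected channels over all gene probes (threshold 1.5). Log2 ratios were tested with limma 3.58.1 (lmFit, eBayes) under R 4.3.3, and p-values were adjusted by Benjamini-Hochberg across the gene probes. Each SE is the moderated one of this fit. The 95% intervals are not adjusted. The Z ratio and limma steps were tested on simulated data. Log2 ratios were simulated directly, without background, dye shift or paired spots, so the steps that handle these were not covered. The replicate number pairs the samples through the shared array, and same-numbered samples deviated together from the group means (r = 0.945 across probes). RefSeq (GRCh38.p14) served for names only. Probe sequences were not used here. The alternatives were other background corrections and normalizations, the deposited net intensities, a filter on dim probes, each replicate left out, spots kept apart, Z scores on loess channels, no replicate block and a robust variance model. Single brighter spots were added after seeing the data.

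The transporters and the gene lists were chosen with earlier results of these data known. All transporters, and the list genes with a Z ratio beyond 1.5 or else the 2 largest in size, are named with values; SLC29A2, SLC19A1, CD3G, CDH5, PGR, CDH2, HIF1A and AHR were added after their values were seen. Some results of the regulator list are not reported here. The number of arrays limits the precision.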

Additional observations from a re-analysis of the deposited data

How the results depend on the processing

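ABCB4 was called by its Z ratio under every alternative that gave one, and the other 9 transporters under none. Median centring, no normalization and the filter on dim probes could not change it. The Z ratio as reported is taken before normalization, and all probes passed that filter. Under print-tip loess it did change (2.27 for ABCB4, against 3.11 as reported), so it is not the same statistic there. The fits with no replicate block and with the robust model gave no Z ratio. Without background correction, with plain subtraction, without normalization and with the deposited net intensities, limma passed 432, 422, 503 (3 higher and 500 lower) and 603 gene probes against 0 as reported. Of the transporters it then passed 1 (ABCB4), 1 (ABCB4), 1 (ABCC6, lower) and 3 (ABCB4 and ABCC6 higher, ABCC5 lower). ABCB4 had adjusted p values in limma of 0.00836, 0.00438, 0.967 and 2.23e-06 there, with log2 ratios of 0.55, 1.36, 0.0093 and 0.72. At an unadjusted p under 0.05, these settings gave 680, 675, 752 and 745 gene probes (433 as reported), 4 transporters without normalization and 1 under median centring (2 as reported). The split of these probes was 9 higher and 743 lower without normalization and 210 and 124 under median centring, against 216 and 217 as reported. Z ratio calls over all probes were 54 higher and 133 lower with plain subtraction, against 125 and 123 as reported.

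With each spot kept apart, 474 spots were called by the Z ratio, 2 of them transporter spots (both of ABCB4), and limma passed 7, with 892 under an unadjusted p of 0.05. In the fit with no replicate block, 0 gene probes and 0 transporters had an unadjusted p under 0.05 and the adjusted p in limma was 1.00 for ABCB4, against 0.145 with it. Print-tip loess, the filter on dim probes (which all probes passed), the robust model and Z scores on loess channels changed no transporter call. With 1 replicate left out the Z ratio called 225 to 233 gene probes and 1 transporter, and limma could not be run.

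The mean log2 ratio changed sign for ABCC4 with plain subtraction (0.071), print-tip loess (0.024) and its spot 1 (0.020), which is also its brighter spot. Under median centring it did so for ABCB10 (-0.040), ABCC3 (-0.026), ABCC6 (-0.18) and ABCG2 (0.0010), and without normalization for ABCB8 (-0.19), ABCB10 (-0.35), ABCC1 (-0.29), ABCC3 (-0.34) and ABCC6 (-0.49). ABCG2 changed sign with print-tip loess (0.0037), the net intensities (0.0079) and its brighter spot 1 (0.0029), ABCC1 with its spot 1 (-0.0016), ABCC3 with its spot 2 (-0.0087) and ABCC6 with its spot 2 (-0.022). By single replicates, the ratio ran between -0.049 and 0.071 for ABCB10, -0.081 and 0.022 for ABCC2, and -0.021 and 0.10 for ABCC1. Apart from what each setting leaves out, the cause was not tested. Signal over background limits ABCB4, ABCC4 and ABCC6 most.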
